A study of Mus musculus with 3 samples.

Results

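The genes described here were the 10 mouse genes of the MHC class II presentation machinery, taken by their symbols from the 51912 genes of the count tables. They were the chain genes H2-Aa, H2-Ab1, H2-Eb1 and H2-Eb2, the peptide exchange genes H2-DMa and H2-DMb1, their inhibitors H2-Oa and H2-Ob, the invariant chain gene Cd74 and the class II transactivator gene Ciita. Cells came from lymph nodes of C57BL/6 mice carrying CXCL13-TdTomato, a transgene with Cre and the red reporter TdTomato under Cxcl13 control, so that the label depends on this promoter. All mice received immune complexes (IC, antigen bound by antibody). The 2 libraries of the 2-IC group came from mice given 1 IC 7 days and another IC 24 hours before analysis, and the single 1-IC library came from mice given an IC 24 hours before. The titles of the 2-IC libraries agree, but their short descriptions, Biotin24h and Biotin7d, differ. What these descriptions stand for is not given, so whether these libraries differed in treatment is not known. Live cells positive for podoplanin and TdTomato and negative for CD31 and CD45 were sorted and sequenced with the 10x 3′ kit. Nodes of several mice were pooled and the tables do not tell the animals apart, so that the spread given below is that between libraries, which may be technical.

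MHC class II molecules are pairs of an alpha and a beta chain that show peptides from the endosome to CD4+ T cells. The invariant chain fills their groove on the way to the endosome, H2-DM exchanges its remnant for peptide, and H2-O, known mainly from B cells, restrains H2-DM. Transcription of these genes is coordinated by CIITA, which is constitutive in B cells, dendritic cells and other professional presenting cells and inducible by interferon gamma in many stromal cells. Follicular dendritic cells (FDCs) are stromal cells that hold intact antigen for B cells on complement receptor CR2 and lie in close contact with B cells, whose class II RNA is abundant.

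The deposited tables held 5486 barcodes and 37162530 unique molecular identifiers (UMIs, each standing for 1 captured RNA molecule), of which 2-IC replicate 1 had 20607903, 2-IC replicate 2 had 12788101 and the 1-IC library had 3766526. After filters on quality and on 13 genes of other cells, Cd79a and Ptprc among them, 2062 stromal barcodes were retained (37.6%). Their median depth was 4775, 15084 and 6473 UMIs in these 3 libraries, in this order, and values for the 3 libraries are given in this order throughout. Gates on raw UMIs placed 93 barcodes in the Cr2 gate with ample nuclear Malat1 RNA, 49 in the Cr2 gate with Malat1 under 1% of UMIs, 38 in the Madcam1 gate, 315 in the Tnfsf11 gate, 171 in the Fmod/Ccl21a gate, 689 in the Inmt gate and 707 in none of them. The 2-IC libraries shared 76 barcode sequences, and 52 of the 2062 retained barcodes occurred in more than 1 library. With the 1-IC library, 2-IC replicate 1 shared 2 and 2-IC replicate 2 shared 0. The reason was not tested, so that the independence of the 2-IC libraries is not established.

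The gates stood for FDCs (Cr2), marginal reticular cells (Madcam1), interfollicular reticular cells (Tnfsf11), reticular cells of the border between T and B cell zones (Fmod/Ccl21a) and medullary reticular cells (Inmt). Fcer2a, the low-affinity IgE receptor of FDCs and B cells, was at 243, 140 and 213 CPM (UMIs of a gene per 1000000 UMIs of the sum) in the Cr2 gate with ample Malat1 and at most 11.7 in any library of the gates without Cr2. Bst1, a marker of marginal reticular cells, was at 719 to 775 CPM in the Madcam1 gate. Ch25h, an oxysterol enzyme held to mark interfollicular cells, went against the name of the Tnfsf11 gate, with 35.99 to 62.0 CPM there and 73.4 to 155 CPM in the Madcam1 gate. The gates are therefore called by their genes. References were 940 barcodes with Cd79a, a B cell receptor component, and little stromal matrix RNA, 59 barcodes with Tyrobp, a myeloid adaptor gene, and 152 barcodes with the T cell genes Trac and Cd3d, chosen because mouse T cells make little class II. The T cell barcodes were chosen after the other results had been seen.

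Apart from Cd74 and Ciita (chromosome 16), the genes lie in the MHC locus on chromosome 17, from the start of H2-Oa at 34092340 to the end of H2-Eb2 at 34341412 (GRCm38, GENCODE M21). H2-Aa (ENSMUSG00000036594) spans 34282744 to 34287823 on the minus strand, and the neighbouring H2-Ab1 (ENSMUSG00000073421) spans 34257689 to 34269419 on the plus strand. Class II promoters carry an X box and a Y box, on which RFX, CREB and NF-Y assemble to recruit CIITA. RefSeq promoter sequences (GRCm38.p6) were given for 7 of the 10 genes. H2-Ab1, Cd74 and Ciita were not among them. The stretches below are shown because they hold letters like those of these boxes, and no binding was measured. They are in lower case with the matched words in capitals, which are TGATTGG (Y box core) and an X box like word made of GNAAC and ATGNTGC with 2 bases of any kind between them:
H2-Aa: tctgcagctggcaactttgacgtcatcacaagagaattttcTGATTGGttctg
H2-Eb1: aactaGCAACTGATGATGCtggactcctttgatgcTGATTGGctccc
H2-Eb2: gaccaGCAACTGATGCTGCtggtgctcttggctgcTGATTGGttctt
H2-Ob: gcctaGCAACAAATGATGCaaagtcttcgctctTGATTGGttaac

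These stretches lie at chr17:34287862-34287914 (minus strand), chr17:34305771-34305817, chr17:34325538-34325584 and chr17:34238813-34238857 (plus strand). Within the 250 bases before the start and on either strand, the Y word was found for 6 of the 7 genes, and in 2375 of 32851 promoters in all (7.23%). The X word was found for 4 of the 7 genes and in 11 promoters in all (0.0335%). The words were written down after the promoters of these genes had been read, so the contrast with other promoters is built in. In the H2-Eb1 and H2-Eb2 promoters 16 bases separated the words, against 14 for H2-Ob and 17 for H2-DMb1, whose stretch overlaps an annotated exon and is not shown. H2-DMa had neither word in either of its 2 listed promoters.

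Class II chain RNA was detected at a low level in every stromal gate, which by itself does not tell a cell's own RNA from stray RNA. H2-Aa, the alpha chain of I-A, was at 103, 37.7 and 58.7 CPM over all retained stroma (66.5 ± 33.4, SD, n = 3 libraries). H2-Ab1, the beta chain of I-A, was at 218, 107 and 149 CPM (158 ± 56.1), above H2-Aa in each library. H2-Eb1, the beta chain of I-E, whose alpha chain gene is defective in this strain, was at 115, 39.2 and 53.9 CPM (69.2 ± 40.0). For all 3 chain genes 2-IC replicate 1 was highest and the deeper 2-IC replicate 2 was lowest, and the 1-IC library lay between them. With 1 library, the 1-IC condition had no replicate and was not tested against the 2-IC condition.

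**Figure D1:**
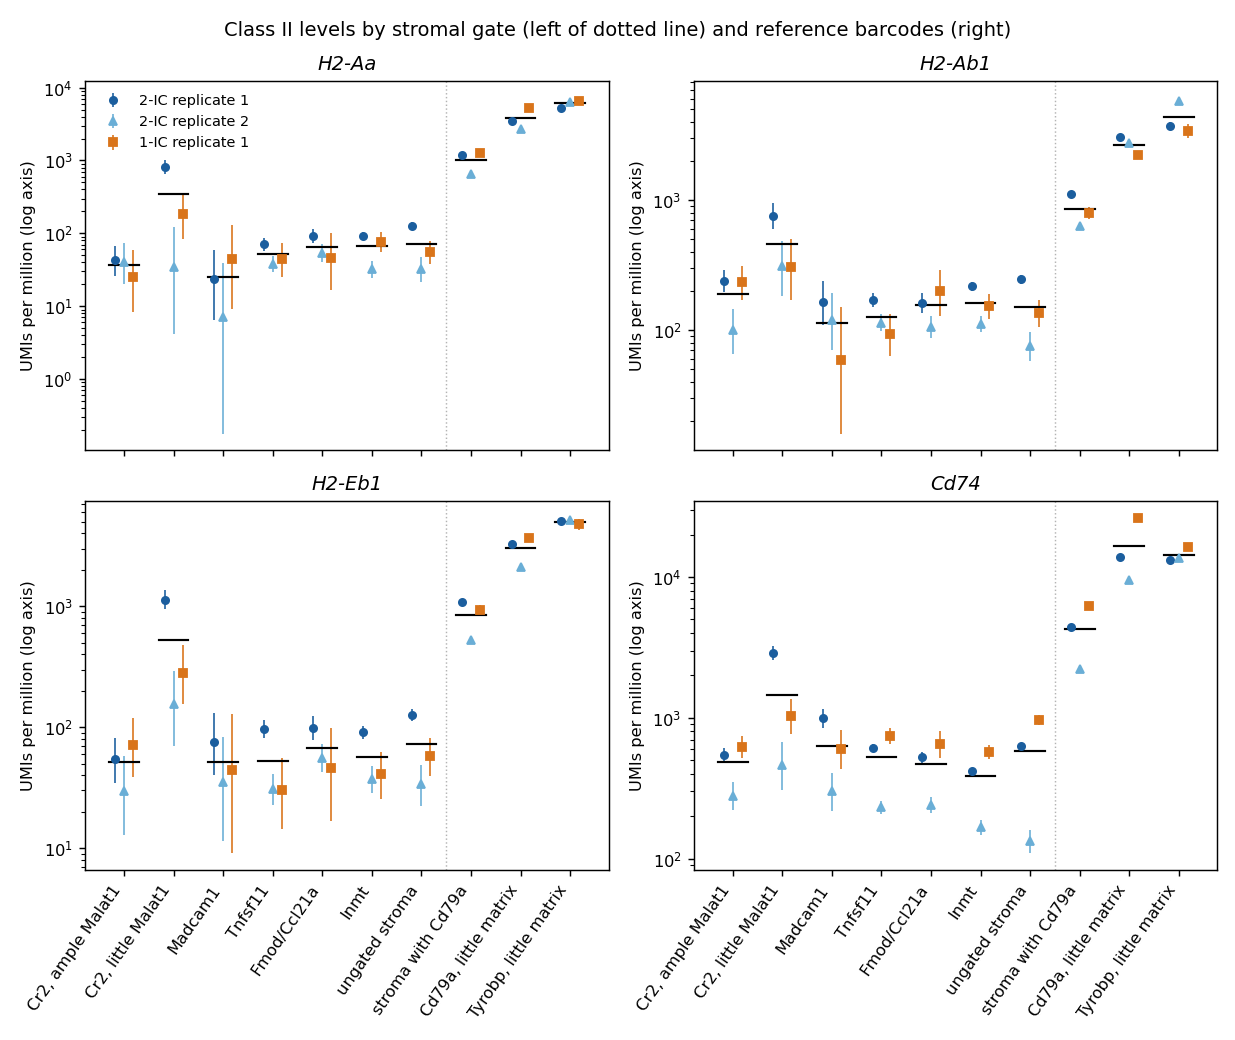
Levels of 4 class II genes in each library, in CPM on a log axis, by stromal gate and in the Cd79a and Tyrobp references to the right of the dotted line; bars are exact Poisson 95% intervals and cover counting error only. H2-Aa lay between 7.05 and 125 in the stromal gates other than Cr2 with little Malat1, and between 2738 and 5164 in the Cd79a reference.

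Among the gates the mean H2-Aa level rose from 24.8 ± 18.5 CPM (Madcam1, 8 UMIs in all) through 36.4 ± 9.64 (Cr2, ample Malat1), 51.2 ± 17.1 (Tnfsf11), 64.1 ± 24.9 (Fmod/Ccl21a), 66.7 ± 30.5 (Inmt) and 71.2 ± 48.4 (ungated) to 343 ± 414 (Cr2, little Malat1). The libraries of each pair of neighbours in this order overlapped, so that no neighbours differed beyond their spread over libraries. Within the libraries, 2 of these steps had the same direction in 3 of 3, from Tnfsf11 to Fmod/Ccl21a and from ungated to Cr2 with little Malat1. H2-Ab1 had another order. It was at 238, 99.7 and 233 CPM in the Cr2 gate with ample Malat1 (190 ± 78.6), at 126 ± 40.0 in the Tnfsf11 gate and at 160 ± 52.9 in the Inmt gate. These ranges overlapped as well.

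Cd74, which encodes the chaperone of newly made chains, was the most abundant class II transcript, at 575, 205 and 743 CPM over all retained stroma (508 ± 275). Here the 1-IC library was the highest. The gate means ran from 384 ± 204 CPM in the Inmt gate to 631 ± 344 in the Madcam1 gate, with 481 ± 179 in the Cr2 gate with ample Malat1 and 1459 ± 1266 in that with little Malat1. Between libraries the ranges of all gates overlapped. Within libraries, Cd74 was lower in the Inmt gate than in the Tnfsf11 gate in 3 of 3 (log2 ratios of -0.55, -0.48 and -0.38) and lower than in the Madcam1 gate in 3 of 3, at 416, 166 and 571 CPM against 989, 303 and 602.

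The peptide exchange genes were low but not alike. H2-DMb1, the beta chain of H2-DM, was at 20.6, 17.5 and 21.9 CPM (19.99 ± 2.23), with the smallest relative spread of any class II gene detected in all 3 libraries. H2-DMa, its alpha chain, was at 13.8, 7.41 and 3.73 CPM (8.31 ± 5.09). H2-DMb1 has a close copy, H2-DMb2, and how reads shared by both were counted is not given in the sources used here, so its level is uncertain to that extent. The inhibitor genes H2-Oa and H2-Ob gave 22 and 30 UMIs over all 2062 barcodes, H2-Eb2 gave 5 and Ciita 6. Ciita was detected in 5 of 1422, 1 of 365 and 0 of 275 barcodes, and the lack of counts in the 1-IC library allows a level of up to 1.60 CPM. None of the 6 Ciita UMIs fell in a Cr2, Madcam1, Tnfsf11 or Fmod/Ccl21a barcode. By library this allows up to 1.98 to 8.997 CPM in the Tnfsf11 gate and up to 6.81 to 15.2 CPM in the Cr2 gate with ample Malat1.

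**Figure D2:**
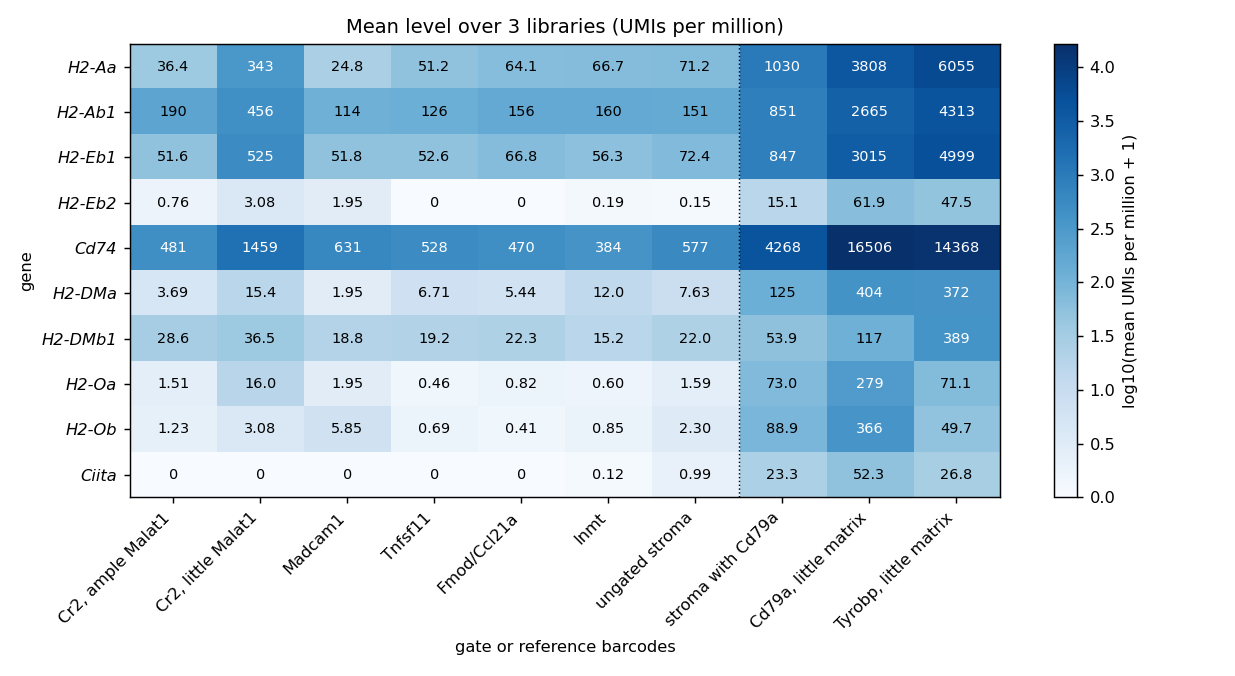
Mean level of all 10 class II genes over the 3 libraries, as log10 of CPM plus 1, by stromal gate and in the reference barcodes. H2-Eb2, H2-Oa, H2-Ob and Ciita were near 0 in stroma, while Cd74 and H2-Ab1 were the highest there.

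The T cell barcodes, which passed through the same suspension and droplets, were chosen with no UMI of Tyrobp, Cd79a or Cd79b. Retained stroma was not filtered on Tyrobp and held 121 UMIs of it, and what this adds to the comparison was not tested. In the T cell barcodes the chain genes were lower than in stroma. H2-Aa was at 18.9, 12.7 and 0 CPM there (10.5 ± 9.62), from 7, 5 and 0 UMIs, and the lack of counts in the 1-IC library allows up to 22.4 CPM. H2-Ab1 was at 53.9, 12.7 and 0 CPM (22.2 ± 28.2), and Cd74 at 105, 22.8 and 37.3 CPM (55.1 ± 44.0). Neither gene overlapped its stromal levels, and both were higher in stroma in 3 of 3 libraries, as was H2-Aa. The exact two-sided permutation test over libraries gave p = 0.1 for H2-Aa, H2-Ab1, Cd74 and H2-DMb1, the smallest that 3 against 3 allow, and p = 0.2 for H2-Eb1. It treated the values as independent and ignored that stroma and T cell barcodes came from the same libraries. Other class II genes went the other way. H2-DMa was at 51.2, 30.4 and 14.9 CPM in T cell barcodes, above stroma in each library, and H2-Ob was at 16.2, 17.8 and 7.46 CPM against 3.39, 0.542 and 0 in stroma (exact p = 0.1 for each). Over the 10 genes tested in this way, the adjusted p of these 6 genes was 0.167, so that none passed 0.05.

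By share of barcodes, H2-Aa was detected in 29.3% of retained stroma, H2-Eb1 in 30.6%, H2-Ab1 in 50.2% and Cd74 in 66.2%. These shares depend on depth. With each barcode thinned to 2000 UMIs, which left out 232 shallower stromal barcodes, H2-Aa was detected in 10.5% ± 4.18 of stroma, 4.04% ± 4.92 of T cell barcodes and 94.9% ± 4.08 of the Cd79a reference (SD, n = 3 libraries). H2-Ab1 was detected in 26.0% ± 4.26, 4.26% ± 5.44 and 94.1% ± 3.30 of them, in this order. H2-DMa was detected in 1.54% ± 1.42 of stroma and 5.92% ± 5.04 of T cell barcodes. The T cell barcodes held 33 UMIs of H2-DMa and 12 of H2-Aa, against 2725 and 21714 in the Cd79a reference. Whether H2-DMa is stray RNA in T cell barcodes was not tested, so its share there is not taken as a background for stroma. The H2-Aa shares of stroma and T cells overlapped between libraries, whereas every library's share for H2-Ab1 in stroma (21.3% to 29.6%) was above every share in T cells (0% to 10.4%). Median depth before thinning was 3467, 8932 and 4265 UMIs in the T cell barcodes.

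The balance of the class II transcripts differed between stroma and the presenting cells. The ratio of H2-Ab1 to H2-Aa UMIs was 2.12, 2.85 and 2.54 in retained stroma (2.50 ± 0.366), 0.861, 1.01 and 0.426 in the Cd79a reference (0.765 ± 0.304) and 0.709, 0.922 and 0.516 in the Tyrobp reference (0.716 ± 0.203). The Tyrobp reference held 29, 13 and 17 barcodes, and 2 barcodes of each library held 61.1%, 46.1% and 65.9% of its chain UMIs. Its ratios therefore rest on few barcodes. No stromal library overlapped any library of the Cd79a or Tyrobp reference, with 2.49 ± 0.462 in the Tnfsf11 gate and 2.60 ± 0.741 in the Inmt gate. An exception among the gates was Cr2 with little Malat1, at 0.932 in 2-IC replicate 1. In stromal barcodes that also held Cd79a the ratio was 0.944, 0.979 and 0.637 (0.853 ± 0.188). The T cell barcodes held 20, 5 and 0 UMIs of H2-Ab1 and 7, 5 and 0 of H2-Aa. These were too few to set their balance apart from that of stroma, and stray RNA as a source of the stromal balance was not tested. The ratio of H2-DMb1 to H2-Aa was 0.199, 0.464 and 0.373 in stroma, against 0.0312 ± 0.00377 in the Cd79a reference and 0.0645 ± 0.0195 in the Tyrobp reference. For the B cell gene H2-Oa the ratio to H2-Aa lay below that of the Cd79a reference, at 0.0165 ± 0.00631 against 0.0742.

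**Figure D3:**
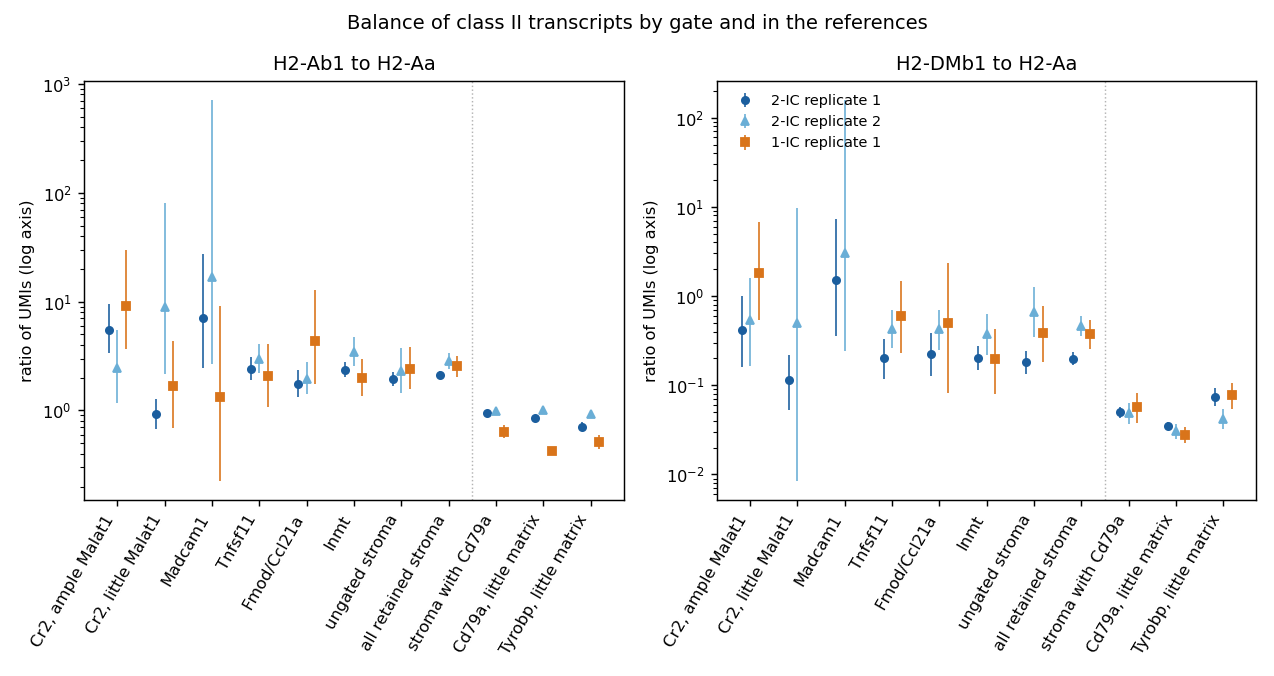
Ratios of class II transcripts, as UMIs over UMIs on a log axis, for each library by stromal gate and, to the right of the dotted line, in the reference barcodes; bars are counting intervals and ratios of 0 are not drawn. The ratio of H2-Ab1 to H2-Aa over all retained stroma was 2.12 to 2.85, above the 0.426 to 1.01 of the Cd79a reference.

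Other cells' RNA was measured beside these levels. A list of 12 B cell genes summed to 164 ± 33.2 CPM in retained stroma and 4345 ± 708 in the Cd79a reference, but Spib and Cd72 made up most of it in stroma, at 92.2 and 61.5 CPM over the pooled libraries against 104 and 186 in the reference. Without this pair the list summed to 32.6, 7.04 and 5.87 CPM in stroma and was detected in 16.0%, 9.32% and 2.91% of barcodes. The ratio of the 3 chain genes to the list without the pair was 13.4, 26.2 and 44.5 in stroma (28.0 ± 15.7) against 2.33 ± 0.116 in the Cd79a reference. With the pair it was 1.74 ± 0.427 against 2.18 ± 0.103. The choice to leave the pair out was made after seeing the data.

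Lists of dendritic cell, T cell and endothelial genes, partly removed by the contaminant filter, summed to 35.2 ± 0.685, 5.13 ± 2.50 and 11.5 ± 3.15 CPM in stroma. A list of 9 macrophage and monocyte genes summed to 80.2 to 254 CPM in stroma by library, with all 9 genes detected in each, and to 7482 ± 3378 CPM in the Tyrobp reference. Aif1 made up most of this list in stroma, at 104 CPM over the pooled libraries against 428 in the Tyrobp reference. If every UMI of the shortened B cell list and of 6 myeloid genes (Fcer1g, Laptm5, Csf1r, Cd68, C1qa and C1qb) had come with class II RNA in the proportion of its reference, stroma would hold 95.2, 57.1 and 60.6 CPM of H2-Aa. The 103, 37.7 and 58.7 CPM measured were 1.08, 0.661 and 0.968 times as high. The same arithmetic, also chosen after seeing the data, gave 71.9, 53.2 and 30.7 CPM of H2-Ab1, and the measured levels were 3.04, 2.02 and 4.85 times as high. H2-DMb1 was measured at 3.47, 7.501 and 4.998 times its value by this arithmetic and Cd74 at 2.06, 1.56 and 4.48 times. H2-Eb1 was at 1.26, 0.845 and 1.23 times and H2-Oa at 0.782, 0.320 and 0.992 times. By gate, H2-Aa was at 0.443, 0.692 and 0.309 times in the Cr2 gate with ample Malat1 and at 1.28, 0.525 and 1.40 times in the Inmt gate. Any myeloid gene that stroma itself expresses raises the values assumed here. Laptm5 was also at 369 CPM in the pooled Cd79a reference, so B cell RNA can raise them as well. The myeloid proportions rest on few barcodes, since 2 barcodes of each library held 46.1% to 65.9% of the chain UMIs of the Tyrobp reference.

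Class II RNA was measured again in 1334 retained barcodes with no UMI of narrower B cell, myeloid and dendritic cell lists. The B cell list used here was that without Spib and Cd72. This selection can leave stray RNA in place, since the B cell list without Spib and Cd72 was detected in 16.0%, 9.32% and 2.91% of all retained barcodes, so that most had no UMI of it in any case. H2-Aa was at 82.4, 36.1 and 60.2 CPM and H2-Ab1 at 222, 113 and 152 CPM. H2-Eb1 was at 91.4, 36.4 and 42.9 CPM, and Cd74 at 514, 200.1 and 765 CPM.

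Over all retained stroma most pairs of class II genes were detected in the same barcode more often than the product of their shares. H2-Aa and H2-Ab1 were both found in 415 of 2062 barcodes (20.1%), 1.32 to 1.55 times the product of their shares by library, and H2-Ab1 and Cd74 in 804 (39.0%), 1.16 to 1.21 times. After thinning to 2000 UMIs the excess of H2-Aa with H2-Ab1 was 1.70 to 2.46 times, from 117 of 1830 barcodes. That of H2-Aa with H2-Eb1 was 2.14 to 2.83 times, from 77. An exception at full depth was H2-Aa with H2-DMb1, at 0.764 to 1.39 times. Pooled gates with unlike levels also raise such an excess, and in sparse counts it is given as a description.

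Co-detection was also counted gate by gate, at full depth. In the Inmt gate H2-Aa and H2-Ab1 were found together 1.41 to 1.69 times as often as the product of their shares (147 of 689 barcodes), and H2-Aa and H2-Eb1 1.53 to 2.38 times. In the Tnfsf11 gate these pairs were at 1.03 to 1.36 times (61 of 315) and 1.26 to 1.63 times. In the Fmod/Ccl21a gate they were at 1.00 to 1.47 times (41 of 171) and 0 to 1.62 times. In the Cr2 gate with ample Malat1, these pairs did not show such an excess in every library. H2-Aa and H2-Ab1 were at 0.885 to 1.27 times (23 of 93) and H2-Aa and H2-Eb1 at 0.844 to 0.911 times (9 of 93). H2-Aa and Cd74 were at 0.958 to 1.01 times there. H2-Ab1 and H2-Eb1, however, were at 1.12 to 1.21 times (30 of 93). H2-Ab1 was detected in 75.3% of that gate against 49.8% of the Inmt gate, which limits how high its ratios can rise. Thinned to 2000 UMIs, 0 of 88 barcodes of the Cr2 gate with ample Malat1 held H2-Eb1 with H2-Aa or with H2-Ab1, which allows a share of up to 3.41%. H2-Eb1 itself was then detected in at most 5.77% of these barcodes in any library. Hardly any joint barcodes were therefore possible, and this count cannot show a lack of co-detection. In the Cr2 gate with little Malat1, H2-Aa and H2-Ab1 were at 1.10 to 1.29 times (13 of 49). The counts per gate and library were small, and the difference between gates was not tested.

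H2-Aa, H2-Ab1, H2-Eb1 and Cd74 were all present in 213 of 2062 retained barcodes (10.3%) and in 887 of the 940 Cd79a reference barcodes (94.4%). No class II gene at all was detected in 313 stromal barcodes (15.2%) and in 2 of the reference. The median barcode held 2 of the 10 genes in stroma and 7 in the reference. At least 10 chain UMIs were found in 94 stromal barcodes (4.56%) and in 868 reference barcodes (92.3%). Of these 94, 55 had no UMI of the same narrower B cell, myeloid and dendritic cell lists (58.5%). This compares with 61.4% of the barcodes with 1 to 9 chain UMIs and 71.9% of those with none. The median depth of these 3 groups was 8600, 6296 and 4676 UMIs, so that they were not matched in depth.

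Within the Cr2 gates, class II RNA was higher where Malat1 was low. By edgeR (quasi-likelihood test, Benjamini-Hochberg adjustment over 7735 genes), 4 of the 5 class II genes tested rose in the gate with little Malat1 and 0 fell, against 4.33% of all genes that rose and 8.69% that fell, 13% in all. The other 5 class II genes did not pass the filter on low counts. H2-Aa was at 813, 34.3 and 182 CPM with little Malat1 and at 43.1, 40.6 and 25.3 CPM with ample Malat1, a log2 change of 3.35 ± 0.44 (SE, adjusted p = 5.41e-06). H2-Eb1 was at 1137, 154 and 283 CPM against 54.5, 29.5 and 70.9, a log2 change of 3.50 ± 0.33 (adjusted p = 2.79e-08). The libraries of the gates overlapped for H2-Aa and did not for H2-Eb1. H2-Ab1 (1.26 ± 0.29, adjusted p = 0.00411) and Cd74 (1.47 ± 0.33, adjusted p = 0.00349) rose less, and H2-DMb1 gave 0.87 ± 0.66 (adjusted p = 0.41). The median log2 change was 1.47 over the 5 genes and -0.41 over all genes tested.

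A large part of the difference in H2-Aa came from 2 barcodes of 2-IC replicate 1, which held 63.3% of the 360 chain UMIs of the gate with little Malat1. The first had 148 chain UMIs (45 of H2-Aa, 44 of H2-Ab1 and 59 of H2-Eb1) and 126 of Cd74, beside 41 of the leukocyte gene Cd52, 4 of Tyrobp, 5 of Cr2 and 180 of Cxcl13. The second had 80 chain UMIs (37 of H2-Aa, 1 of H2-Ab1 and 42 of H2-Eb1) and 110 of Cd74, beside 2 of Tyrobp, 6 of Cr2 and 114 of Cxcl13. The median barcode had 2 chain UMIs in both Cr2 gates, at median depths of 3885, 5890 and 3423 UMIs with little Malat1 and 7317, 14732 and 9776 with ample Malat1. At 2000 UMIs per barcode, H2-Ab1 was detected in 56.5%, 66.7% and 76.9% of barcodes with little Malat1 and in 34.6%, 17.6% and 36.8% with ample Malat1. H2-Eb1 was detected in 39.1%, 22.2% and 30.8% against 5.77%, 0% and 0%, where 0 of 17 and 0 of 19 barcodes allow shares of up to 17.6% and 15.8%. These shares, in which no barcode counts more than another, did not overlap between the gates for either gene, whereas those of H2-Aa did, at 0% to 23.1% against 3.85% to 11.8%. Without the 2 rich barcodes 1 of the 5 genes was called, H2-Eb1 (log2 change 2.05, adjusted p = 0.000465), and H2-Aa gave 1.03 (adjusted p = 0.232). Of all 7713 genes tested in this setting 913 were called, 281 of them higher. Without 2-IC replicate 1 as a whole the call was again H2-Eb1, 1 of 4 genes tested, against 488 of all 6504 genes (88 higher). With the barcodes kept that carried UMIs of the 13 contaminant genes, 0 of 10 genes were called, against 2167 of all 9877. Without the library as a block 2 of 5 were called, against 410 of all 7735. The macrophage and monocyte list was at 514 to 1313 CPM in the gate with little Malat1 against 129 to 332 with ample Malat1. Over the pooled libraries Aif1 was at 412 against 206 CPM and Lyz2 at 282 against 33.0. Csf1r went the other way, at 4.63 against 9.90 CPM. By the arithmetic above on both references, H2-Aa with little Malat1 was at 4.39, 0.177 and 0.427 times its value. H2-Eb1 was at 6.37, 0.986 and 0.921 times, Cd74 at 5.94, 0.973 and 0.885 times and H2-Ab1 at 5.66, 1.69 and 1.40 times. These values rest on 8, 3 and 8 myeloid UMIs, and the part of stray RNA in the class II difference was not tested.

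**Figure D4:**
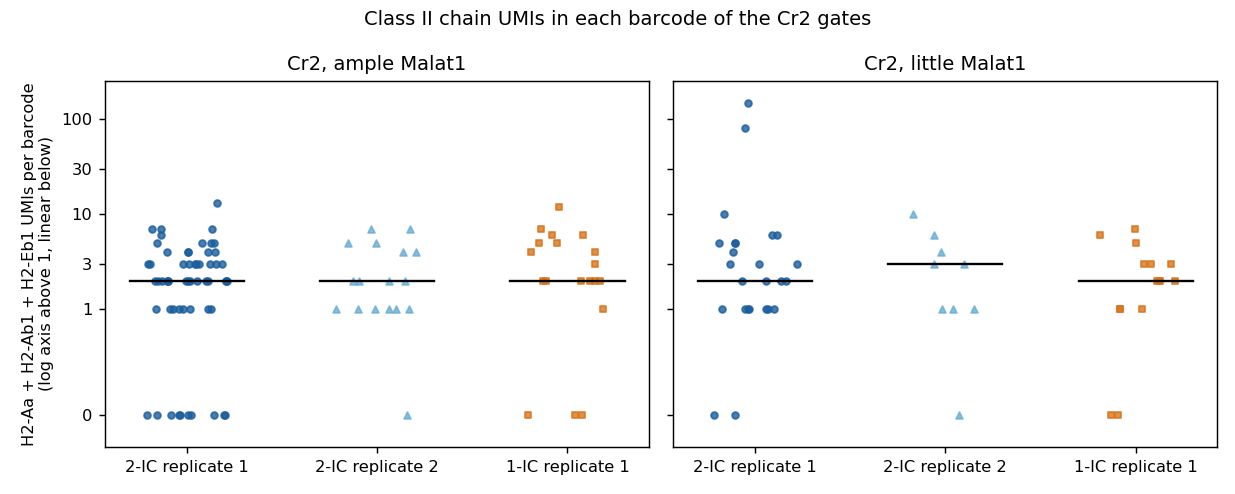
UMIs of H2-Aa, H2-Ab1 and H2-Eb1 together in each barcode of the Cr2 gates by library, on an axis that is linear up to 1 and logarithmic above. The barcodes with 148 and 80 chain UMIs stand above all others of both gates, whose medians were 2.

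Of the class II pathway list, which held proteases, transcription factors and interferon gamma signalling genes besides the members, 1 of 21 tested genes rose and 1 fell in this comparison. Of all genes 4.33% rose and 8.69% fell, so these counts do not set the pathway list apart from other genes. Ifi30, the thiol reductase of the endosome, rose by 0.94 ± 0.32 on the log2 scale (adjusted p = 0.0469), and Jak1, a kinase of interferon receptors, fell by 0.90 (SE 0.28, adjusted p = 0.0297). Of the list of interferon-induced genes 4 of 12 rose and 0 fell, with a median log2 change of 0.77. Among them were Cxcl9, a chemokine induced by interferon gamma, at 699 ± 300 against 144 ± 218 CPM (2.61 ± 0.75, adjusted p = 0.0199), and Psmb8, an immunoproteasome subunit, at 563 ± 146 against 219.5 ± 71.4 CPM (1.24 ± 0.22, adjusted p = 0.000358).

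The Cr2 gate with ample Malat1 was then compared with the mean of the Tnfsf11, Fmod/Ccl21a and Inmt gates. In edgeR's test 0 of 5 class II genes were called, while 27.5% of all genes were (14.4% higher and 13.1% lower), and 1 of 5 had an unadjusted p under 0.05. This gene was H2-Aa, with a log2 change of -0.84 ± 0.39 (adjusted p = 0.112). H2-Ab1 gave 0.32 ± 0.21, H2-DMb1 0.44 ± 0.41, H2-Eb1 -0.43 ± 0.31 and Cd74 0.10 ± 0.26. DESeq2 called 0 of 5 as well, against 2070 of all 7735 genes. The filter on contaminant genes mattered here. When barcodes with UMIs of those 13 genes were kept, all 10 class II genes were tested and all 10 rose in the Cr2 gate. Of all 9877 genes tested in this setting 2749 were called, 1415 of them higher. H2-Aa rose by 1.99 (edgeR, adjusted p = 8.16e-07), and its level in this gate was 735 CPM in place of 36.4. B cells also carry CR2, and a gate on Cr2 can gather barcodes with B cell RNA when those with Cd79a are kept. The part of such RNA in this rise was not tested.

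In the same comparison with the filter in place, 7 of 21 pathway genes rose and 4 fell. Of all genes 14.4% rose and 13.1% fell. Ifngr1, the ligand-binding chain of the interferon gamma receptor, was at 336 ± 40.5 CPM in the Cr2 gate against 234 ± 34.6 in the other gates (0.51 ± 0.13, adjusted p = 0.00369). The endosomal proteases Ctsl and Ctsb fell by 0.67 and 0.75 on the log2 scale. Of the interferon-induced genes 0 of 12 rose and 4 fell, with Iigp1, a GTPase induced by interferon gamma, at 71.1 ± 59.0 against 224 ± 102 CPM (log2 change -1.93, adjusted p = 0.000703).

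Between the reticular gates class II RNA was not shown to differ. For the Fmod/Ccl21a gate against the Tnfsf11 gate 0 of 5 genes were called, at a background of 4.14% (2.26% higher and 1.87% lower), and 0 had an unadjusted p under 0.05, with H2-Aa at 0.53 ± 0.32 and H2-Eb1 at 0.52 ± 0.27. For the Inmt gate against the Tnfsf11 gate 0 of 5 were called, at a background of 2.96% (1.84% higher and 1.12% lower), and again 0 had an unadjusted p under 0.05. There H2-Ab1 gave 0.37 ± 0.22, H2-Aa 0.36 ± 0.28 and Cd74 -0.35 ± 0.29. DESeq2 also called 0 in both, against 313 and 165 of all 7735 genes. The standard errors were 0.22 to 0.24 for H2-Ab1 and 0.35 to 0.39 for H2-DMb1 in these comparisons. A call after adjustment over all genes needs more than 2 standard errors, so that changes larger than this could also go uncalled. Of the pathway list 0 of 21 genes were called between the Fmod/Ccl21a and Tnfsf11 gates, and 2 of 21 rose and 0 fell in the Inmt gate, with a list median of -0.12. Of the interferon-induced genes 0 and 1 of 12 were called. Irf1, which is on both lists, a transcription factor that acts on the Ciita gene, was higher in the Inmt gate, at 84.7 ± 11.0 against 54.5 ± 10.0 CPM (0.76 ± 0.22, adjusted p = 0.0477), as was Icosl, a costimulatory ligand (1.21 ± 0.29, adjusted p = 0.0111).

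Stromal barcodes with an interferon signature were examined because class II is an interferon gamma target. The gate took 135 barcodes without Cr2 that held at least 5 UMIs of Isg15, Ifit1, Ifit3, Rsad2, Usp18 and Oasl2, against 1785 others. These genes do not single out interferon gamma, so its effect on class II was not tested here. Median depth was 8678, 18667 and 10207 UMIs in the gate and 4671, 14549 and 6326 in the others, so that they were not matched in depth. In edgeR's test 0 of the 6 class II genes that passed the filter on low counts were called, at a background of 0.748% (0.572% higher and 0.176% lower). Cd74 was at 834, 190 and 1117 CPM in the gate and at 520, 200.4 and 680 CPM in the others, a log2 change of 0.44 ± 0.15 (unadjusted p = 0.0077, adjusted p = 0.354), and was the gene of the 6 with an unadjusted p under 0.05. H2-Aa gave -0.01 ± 0.20, H2-Ab1 -0.17 ± 0.16, H2-Eb1 0.26 ± 0.23, H2-DMb1 0.57 ± 0.32 and H2-DMa 0.78 ± 0.42. Without 2-IC replicate 2 Cd74 was called (0.67, adjusted p = 0.00597). In the same barcodes 9 of 14 interferon-induced genes rose, among them Cxcl9 by 2.15 ± 0.28 and Cxcl10 by 1.84 ± 0.24, although a gate on interferon genes favours such genes by its choice.

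Stromal barcodes with Cd79a RNA served as a reference for barcodes that carry B cell RNA. The 519 barcodes with Cd79a and stromal matrix RNA were compared with 2026 retained matrix-bearing barcodes, and 10 of 10 class II genes rose, against 9.32% of all 11446 genes that rose and 4.2% that fell, 13.5% in all. Choosing barcodes by Cd79a favours genes that B cells carry, so a rise of class II genes was built in and the values describe its size. H2-Aa was at 1030 ± 331 CPM against 63.8 ± 29.3 (log2 change 4.06 ± 0.12, adjusted p = 7.39e-19). H2-Ab1 rose by 2.53 ± 0.09, Cd74 by 3.20 ± 0.09, H2-Eb1 by 3.81 ± 0.13 and H2-DMa by 3.66 ± 0.18. The genes near 0 in retained stroma rose most, with 5.83 ± 0.23 for H2-Oa, 5.51 ± 0.27 for H2-Ob, 6.17 ± 0.50 for H2-Eb2 and 5.67 ± 0.44 for Ciita, and these fitted values depend on counts close to 0. H2-DMb1 rose least, by 1.46 ± 0.17 (adjusted p = 2.89e-07). The median was 3.93 over the class II genes and 0.00 over all genes. The plasma cell list was at 589, 2392 and 259 CPM in these barcodes against 249.99, 354 and 168, higher within each library with ranges that overlapped, and its part in the class II values was not tested. Droplets holding a B cell beside a stromal cell and stray RNA cannot be told apart in these sums.

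**Figure D5:**
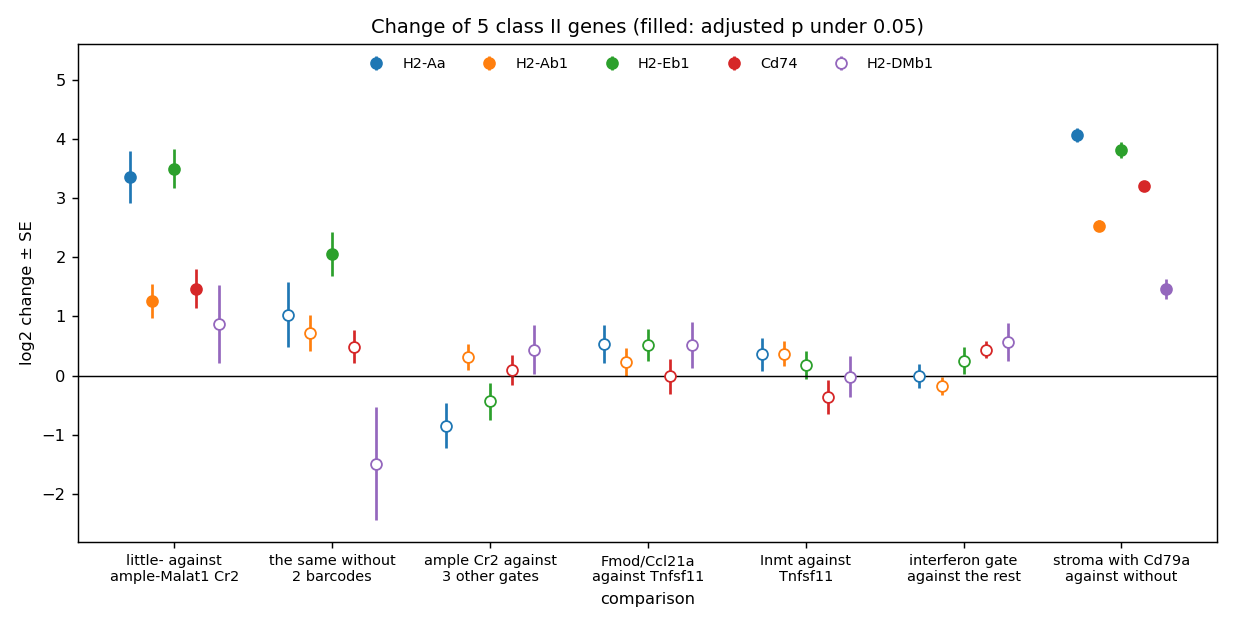
Log2 change with its standard error of H2-Aa, H2-Ab1, H2-Eb1, Cd74 and H2-DMb1 in each of the 6 comparisons, filled where the adjusted p was under 0.05. The comparison of the Cr2 gates is drawn again without the 2 barcodes rich in class II, where H2-Eb1 alone was called. With all barcodes, all 5 genes rose with Cd79a, 4 rose in the Cr2 gate with little Malat1, and none was called in the other 4 comparisons. Choosing barcodes by Cd79a favours genes that B cells carry.

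In the barcodes with Cd79a 10 of 29 pathway genes rose and 1 fell, against 9.32% of all genes that rose and 4.2% that fell. Ctss, the protease that trims the invariant chain in B cells, was at 153 ± 45.7 against 52.2 ± 16.4 CPM (1.63 ± 0.11, adjusted p = 8.69e-12), and Irf8, a transcription factor of B and myeloid cells, rose by 0.55 ± 0.10. Ctsl, which serves the same step in thymic epithelium, fell by 0.41 on the log2 scale. Of the interferon-induced genes 6 of 14 rose, among them Cxcl9 by 0.95 ± 0.15.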

How the data were processed

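Per the labels, libraries were made with the 10x 3′ v3 kit. The authors aligned the reads to GRCm38 with Cell Ranger, for which the study's methods give version 3 and the file headers 5.0.0, and deposited UMI counts per gene and barcode, without normalization. The short descriptions of the 2-IC libraries conflict, and libraries were grouped by their titles. The members and lists were chosen with earlier results of these data known. Barcodes needed at least 200 genes, at most 10% mitochondrial UMIs and 0 UMIs of 13 contaminant genes. Gates needed Cr2 at least 2 and Cxcl13 at least 10 (divided at Malat1 1%), or Cr2 at 0, a matrix share of at least 0.5% over 12 genes and Madcam1 at least 2, Tnfsf11 at least 2, Fmod at least 1 with Ccl21a at least 20, or Inmt at least 2, in this order. This left out 88 barcodes with Cr2 below the gate and 93 with little matrix RNA. References needed Cd79a at least 1, Tyrobp at least 2, or Trac and Cd3d together at least 2, with a matrix share under 0.5%. The Tyrobp reference also needed no UMI of Cd79a, and the T cell barcodes no UMI of Tyrobp, Cd79a or Cd79b. No doublet caller was run, and leaving out the top 5% of barcodes by UMIs was an alternative.

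Counts were summed per gate and library (at least 5 barcodes) and given as CPM, not divided by length, as 3′ UMIs do not scale with it. Sums were tested with edgeR 4.0.16 (R 4.3.3), by its quasi-likelihood test after filterByExpr and TMM scaling, and called at a Benjamini-Hochberg p under 0.05. The fits held the library as a block, since all gates of a library share 1 cell suspension. DESeq2 1.42.0 was an alternative. Intervals are exact at 95% and cover counting error only. The limits given for counts of 0 are not these intervals. They are 3 UMIs over the total, or 3 barcodes over their number, and lie below the exact upper ends. In simulated counts with 200 genes changed by 2 on the log2 scale, the comparison of the Cr2 gates recovered 140 of them. All 10 members were named, and of the pathway and interferon lists up to 3 called genes with the highest mean. Some genes that these rules select are not reported here.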

Additional observations from a re-analysis of the deposited data

Results flagged for a closer look

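In 4 instances the 1-IC library moved one way and both 2-IC libraries the other, as log2 ratios of CPM with at least 3 UMIs in each sum. The difference between the conditions was not tested, as the 1-IC condition had 1 library. H2-Eb1 in the Cr2 gate with ample Malat1, against the mean of the Tnfsf11, Fmod/Ccl21a and Inmt gates, was at 0.87 in the 1-IC library and at -0.81 and -0.49 in the 2-IC libraries. In the same comparison Cd74 was at -0.070 against 0.07 and 0.40. For the Fmod/Ccl21a gate against the Tnfsf11 gate H2-Ab1 was at 1.09 in the 1-IC library, where the first gate held 16 barcodes, against -0.07 and -0.10. H2-DMb1 was at -0.24 against 0.56 and 0.49 there.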

How the results depend on the processing

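Few counts per gate limit these results: H2-Aa rested on 8 UMIs in the Madcam1 gate and 35 in the Cr2 gate with ample Malat1. Of 508 recomputed changes of single genes, 457 kept direction and call, and the causes of the shifts below were not tested.

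With contaminant-bearing barcodes kept, 0 of 10 genes were called between the Cr2 gates, against 2167 of all 9877. Between the Cr2 gate with ample Malat1 and the reticular gates 10 of 10 were called (H2-Aa 1.99 and H2-Eb1 1.79, both turned and called), against 2749 of 9877. Between Fmod/Ccl21a and Tnfsf11 1 was called (H2-Aa, while the uncalled Cd74 turned to 0.74), against 301 of 9877. H2-Aa gave 0.35 in the interferon comparison with these barcodes kept. H2-Aa levels were then 735 and 1018 CPM (Cr2 with ample and little Malat1), 169 (Madcam1), 134 (Tnfsf11), 312 (Fmod/Ccl21a), 198 (Inmt) and 267 (ungated). With Cr2 at least 1 the level in the Cr2 gate with ample Malat1 was 46.9 CPM, and thinned to 2000 UMIs it was 65.0. The Tnfsf11 level was 32.7 thinned and 72.7 with the strict filter. That filter also required 0 UMIs of the full B cell, myeloid and dendritic cell lists, Spib and Cd72 among them. Under that filter the Cr2 comparisons could not be fitted, and Fmod/Ccl21a against Tnfsf11 turned for H2-Aa (-1.10), H2-Ab1 (-0.51) and H2-Eb1 (-0.10), and the interferon comparison for H2-Eb1 (-0.95) and Cd74 (-0.65).

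Between the Cr2 gates, 1 gene was called without the 2 rich barcodes (H2-Eb1, while the uncalled H2-DMb1 turned to -1.49), 1 to 4 leaving out a library, and 2 with no replicate block (410 genes called in all, against 1007 with it). The block, kept because the gates of a library share a suspension, changed no other call of a class II gene. For the Cr2 gate against the reticular gates, 1 gene was called with no filter on low counts (Cd74 -0.018, not called) and 0 to 1 leaving out a library, H2-Aa without 2-IC replicate 2. Leaving out a library, 0 to 1 genes were called in the interferon comparison.

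Uncalled values that changed sign were Cd74 in the Cr2 against reticular comparison (-0.032 at Malat1 3%, -0.057 at the lowest without a library), H2-Eb1 there (-0.84 to 0.18 without a library), Cd74 in Fmod/Ccl21a against Tnfsf11 (0.12 at matrix share 1%, 0.045 without the top 5% by UMIs, 0.0035 by DESeq2, 0.040 at the highest without a library), H2-Eb1 (-0.22 thinned) and H2-DMb1 (0.085 without the top 5%, 0.11 to 0.19 without a library) in Inmt against Tnfsf11, and, for interferon, H2-Aa (0.0040 at matrix share 1%, 0.28 thinned, 0.024 without shared barcodes, 0.0077 with library totals, 0.056 with no replicate block, up to 0.23 without a library) and H2-Eb1 (-1.001 at 10 UMIs, -0.37 to 0.50 without a library). Library totals in place of TMM moved the median of all genes to -0.12 and -0.11 in the reticular comparisons. The ratio of chain to B cell list UMIs was 28.0, 2.30 and 2.33 without Spib and Cd72 in retained stroma, stroma with Cd79a and the Cd79a reference, and 2.78 and 3.28 without Ly6d in the last pair.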

Other observations

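Genes outside the class II set with a profile like that of H2-Aa were ranked by Pearson's r of log2(CPM + 10) over 21 sums of gate and library, among 6099 genes with a mean of at least 20 CPM, as a description. These sums share 3 libraries and differ in depth. Among the leading genes were Ccl5, a chemokine of T cells and other leukocytes (r = 0.81), Cst3, a cysteine protease inhibitor abundant in myeloid cells (0.80), and Rpl37rt, Bub3, Sub1, Sh3bgrl3, Cks1b, Snu13 and Ftl1 (0.77 to 0.74). Without the sums of the Cr2 gate with little Malat1, r fell to 0.33 for Ccl5 and stayed at 0.69 for Cst3. Among the class II genes H2-Eb1 was closest to H2-Aa (0.83, and 0.57 without those sums), followed by H2-Ab1 (0.67 and 0.33), Cd74 (0.63 and 0.26) and H2-DMb1 (0.20 and -0.17).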
